A study of Mus musculus with 18 samples.

Results

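The clustered histone genes of the mouse code for the linker histone H1 and for the core histones H2A, H2B, H3 and H4. They were taken by name from the deposited expression table, as entries with a Hist1 to Hist4 symbol followed by the type and a member letter. This gave 63 of 23924 genes, with 6 for H1, 17 for H2A, 17 for H2B, 12 for H3 and 11 for H4. By symbol 53 belonged to the Hist1 cluster, 9 to Hist2 and 1 to Hist3. Of these, 54 had a value above 0 in at least 1 library and 9 were listed at 0 in every library.

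The values came from total RNA of astrocytes, the glial cells that take up transmitter and ions around synapses, from motor cortex (M1) of wild-type C57BL/6 mice. Naive mice were untrained, novice mice had 3 days of training in a cued lever task rewarded with water, and expert mice were fully trained in it. The study compared novice and expert astrocytes with naive ones to follow gene expression over motor learning. Each group had 6 libraries, labelled as 2 females and 4 males. The mice were 12 to 21 weeks old in the naive, 11 to 13 in the novice and 13 to 15 in the expert group. The series' design text gives water restriction before the training and does not say whether it also held for naive mice. No gene was altered in any group. How the astrocytes were isolated is not stated. Nor do the labels spell out that the libraries are 1 per mouse, and p-values measure the spread between these libraries.

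Histones are the proteins around which nuclear DNA is wound. A pair each of H2A, H2B, H3 and H4 makes up the core particle, and H1 binds the linker DNA where the strand enters and leaves it. Most clustered histone genes are read in S phase, when new DNA has to be packed. These genes mostly have no introns. Their mRNAs usually have no poly(A) tail. They end in a short stem-loop that the stem-loop binding protein Slbp holds during processing, export and translation. Some clustered genes can also give mRNAs with a poly(A) tail in cells that no longer divide. Variant histones such as H3f3a and H3f3b lie outside the clusters and are made throughout the cell cycle. Libraries of total RNA, as used here, can hold transcripts with and without a tail.

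The stem-loop is shown because it is what sets these mRNAs apart from others. It was searched in the GENCODE M21 transcripts as a stem of 6 bases, a loop of 4 bases and the matching stem. The first stem had to start with GG, go on with C or T and end in T, and the loop had to start with T. Of 63 members 43 held it, against 0.146% of 55341 genes, the members included. Of those 43 members, 25 shared 1 form, spread over H1, H2A, H2B and H3. Another form was found in 6 members, all of them H4 genes. The stems are in capitals, the loops in lower case, and T is written for U.
H1, H2A, H2B and H3 form: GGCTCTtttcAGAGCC
H4 form: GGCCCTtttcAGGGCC
The loop is the same in both and the H4 form differs within the stem. Hist1h1e and Hist1h1c, described below with the highest H1 levels, carry the first form. Hist1h4d, Hist1h4h, Hist1h4c and Hist1h4f carry the second. The annotated transcripts ran past the stem-loop by 1153 bases in Hist1h1e, 840 in Hist1h1c, 770 in Hist1h4d and 454 in Hist1h4c. In Hist1h4h and Hist1h4f they ran on by 46 and 33 bases. Whether the reads came from forms that end at the stem-loop was not tested. In a member without a match these letters were not in the annotated transcript, which for many histone genes stops at the end of the coding sequence. Hist1h2bc and Hist2h2be also had no match, with longer annotated transcripts of 1156 and 2620 bases.

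Promoters are shown for the H1 pair, which holds the member with the smallest p-values, and for an H2B and an H2A gene of high level. The sequences are the 150 bases before the annotated start, from RefSeq on build GRCm38.p6, written in the direction of the gene. Capitals mark the letters of 4 motifs searched on both strands: the TATA box TATAA, the CCAAT box CCAAT, the octamer ATTTGCAT and the H1 box AAACACA. None of the 4 is contained in another.
Hist1h1e, chr13:23622559-23622708, minus strand: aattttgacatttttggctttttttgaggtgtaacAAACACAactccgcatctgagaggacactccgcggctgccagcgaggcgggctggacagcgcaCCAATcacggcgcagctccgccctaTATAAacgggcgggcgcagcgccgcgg
Hist1h1c, chr13:23738657-23738806, plus strand: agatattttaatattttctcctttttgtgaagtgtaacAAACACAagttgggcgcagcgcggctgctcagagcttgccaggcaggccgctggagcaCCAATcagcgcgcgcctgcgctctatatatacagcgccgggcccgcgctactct
Hist2h2bb, chr3:96269550-96269699, plus strand: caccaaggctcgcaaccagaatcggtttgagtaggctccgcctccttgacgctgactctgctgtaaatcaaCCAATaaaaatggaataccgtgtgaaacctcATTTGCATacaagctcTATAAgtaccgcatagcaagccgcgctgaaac
Hist1h2af, chr13:23533725-23533874, plus strand: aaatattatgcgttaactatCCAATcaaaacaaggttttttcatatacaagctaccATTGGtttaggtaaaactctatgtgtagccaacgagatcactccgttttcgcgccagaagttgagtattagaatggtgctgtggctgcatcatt
RefSeq entries were matched for 63 of 63 members and a promoter was given for 59. In the 250 bases before the start, CCAAT was found in 49 of 59 members, against 33.9% of 32851 promoters, and TATAA in 37 of 59, against 22.8%. AAACACA was present in 5 of 6 H1 promoters and in 6.25% of all. The octamer was present in 6 of 17 H2A and 6 of 15 H2B promoters, in none of the H1, H3 or H4 promoters, and in 1.60% of all. H2A and H2B genes often lie back to back, so some of these windows share bases. A match describes the letters and not a bound factor.

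Values were read as FPKM, that is, fragments per unit of transcript length and of mapped reads. Read totals are not part of the table, but the values of a member in different libraries were whole multiples of a single step for 51 of the 54 members above 0 (tolerance 0.001), which gives the number of fragments behind each value and the libraries' relative depth. The sources do not state whether a further scaling between libraries was applied. If it was, these depths, and the ratios per unit of depth given below, carry that factor too. Depth ran from 0.315 (naive 6) to 2.07 (expert 3) times that of expert 2, and the fragments over these 51 members from 65 (naive 6 and novice 5) to 524 (expert 3). Genes that brain cells do not use also had reads. The mean of 1544 autosomal silent genes (1091 olfactory receptors, with vomeronasal and taste receptor, keratin-associated protein and defensin genes) was 0.251 FPKM in expert 3 and 5.70 FPKM in naive 6, with 3.16 FPKM over all libraries. By this level 8 libraries lay apart, at 3.89 to 5.70 FPKM (naive 5 and 6, novice 3 to 6, expert 4 and 5), from the other 10 at 0.251 to 2.73 FPKM. In novice 1 and novice 3 the sex-chromosome transcripts went against the labelled sex.

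The cells' label was checked by marker genes. All 10 astrocyte markers were found in every library, with summed levels of 1297 to 5232 FPKM in naive libraries, 1276 to 3441 FPKM in novice libraries and 1717 to 6445 FPKM in expert libraries. Markers of other cells were found too. The sum of 10 neuronal markers was 110 to 573, 132 to 744 and 140 to 656 FPKM in naive, novice and expert libraries, and that of 8 endothelial markers 180 to 255, 135 to 291 and 196 to 534 FPKM. The sums over all libraries were 59.5 to 238 FPKM for oligodendrocytes, 26.8 to 92.0 for oligodendrocyte precursors, 19.7 to 71.7 for microglia and macrophages, 77.7 to 264 for pericytes and smooth muscle and 3.78 to 16.7 for blood cells. In such bulk RNA, fewer cells of a type and less RNA per cell cannot be told apart.

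A few members held most of the histone signal, and most members lay below the mean level of silent genes. Hist1h2af averaged 89.3 FPKM over the 18 libraries, Hist1h2bc 48.3, Hist1h1e 30.0, Hist1h1c 26.5 and Hist1h4d 19.3. Those among them with whole fragments (Hist1h2af, Hist1h1e, Hist1h1c and Hist1h4d) held 1669 of 2819 fragments, or 59.2%. At the other end, 46 of 63 members had a mean below the 3.16 FPKM of silent genes. That value is a mean over silent genes, and their median gene mean was lower, at 1.81 FPKM. The median gene mean over the members was 1.60 FPKM. Hist1h2af, Hist1h2bc and Hist1h1c exceeded the 95th percentile of the silent genes in all 18 libraries and Hist1h1e did so in 17. In total 8 members exceeded it in at least 9 libraries and 19 in none. The plot of members by mean level shows the step down from these 8 members to the rest.

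**Figure D1:**
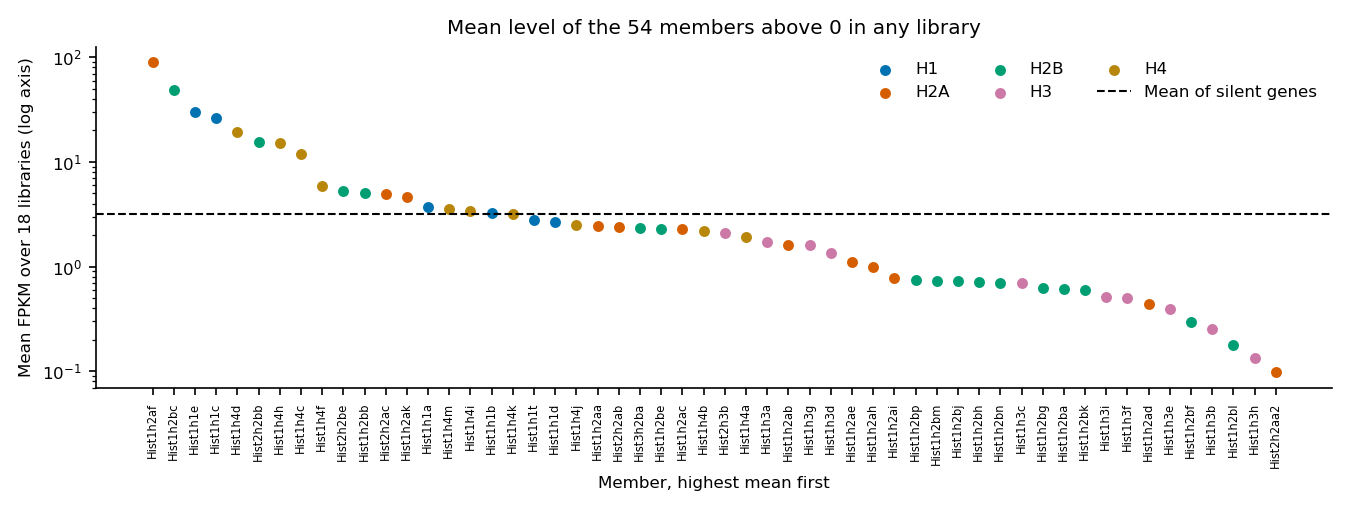
Mean FPKM over 18 libraries (log axis) of the 54 members above 0 in any library, coloured by histone type, with the mean of 1544 silent genes as a dashed line. Hist1h2af leads at 89.3 FPKM, and the H3 genes all lie below the line at 3.16 FPKM.

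Counts were small for most members. Of 1134 values, 476 were above 0. Among the values above 0 of the 51 members with whole fragments, 173 (39.8%) were a single fragment. In 37 of these 51 members no library held over 5 fragments, and 11 reached 10 in some library. For a short gene such as Hist1h4f, 1 fragment was worth 1.45 to 9.52 FPKM, depending on the library. The 9 members listed at 0 in all libraries were Hist1h2ag, Hist1h2an, Hist1h2ao, Hist1h2ap, Hist1h2bq, Hist2h2aa1, Hist1h4n, Hist2h3c1 and Hist2h3c2. Many members are near-identical in sequence. Of the 50-base windows of their GENCODE M21 transcripts, a median of 85.8% also occurred in another histone gene among these 9, against 43.7% among the other 54. The sources do not state how reads from shared windows were assigned, so the level of a member with many shared windows is uncertain. For Hist1h2af 79.7% of windows were shared, for Hist1h2bc 29.4%, for Hist1h1e 8.24% and for Hist1h1c 8.54%, while none was shared for Hist2h2bb and Hist2h2be. On the annotated genome Hist1h1e overlaps Hist1h2be and Gm11398 on its own strand and Hist2h2bb overlaps Gm42743. In all, 6 members overlap a gene on the same strand and 20 one on the opposite strand, and the sources do not state whether the counting used strand.

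H1 genes were led by Hist1h1e and Hist1h1c, linker histones of somatic cells. Hist1h1e was at 32.7, 42.0, 28.6, 38.3, 37.5 and 28.2 FPKM in the 6 naive libraries. It was at 25.0, 22.4, 16.02, 26.5, 6.06 and 15.3 FPKM in the novice and at 36.8, 38.1, 53.1, 18.7, 30.6 and 44.7 FPKM in the expert libraries. Every novice value lay below every naive value, while the expert values overlapped both. Hist1h1c had a median of 21.1 FPKM in naive libraries (17.1 to 41.7), 26.6 FPKM in novice libraries (11.2 to 33.0) and 31.9 FPKM in expert libraries (15.5 to 41.5), with wide overlap. Hist1h1a averaged 4.35 ± 3.70, 2.46 ± 2.81 and 4.26 ± 3.64 FPKM in naive, novice and expert libraries (SD, n = 6 each), and was listed at 0 in 3 of the 18. The other 3 H1 genes, with the testis linker histone Hist1h1t among them, had means of 2.70 to 3.26 FPKM.

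H2A was dominated by Hist1h2af. Its median was 113 FPKM in naive libraries (44.8 to 145), 76.9 FPKM in novice libraries (37.0 to 185) and 63.0 FPKM in expert libraries (22.2 to 124). The groups overlapped over most of this range. Next came Hist2h2ac, at 0 to 16.9, 0 to 6.38 and 3.18 to 13.9 FPKM, and Hist1h2ak, at 0 to 13.4, 0 to 11.8 and 0 to 12.7 FPKM. Hist2h2ac was listed at 0 in 2 naive, 3 novice and 0 expert libraries. Of the 17 H2A genes, 8 passed the filter for testing (1 FPKM in at least 6 libraries).

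Among H2B genes Hist1h2bc was highest, with a median of 55.3 FPKM in naive libraries (23.4 to 74.4), 41.8 FPKM in novice libraries (17.8 to 78.4) and 53.4 FPKM in expert libraries (18.03 to 93.1). Its values did not resolve into whole fragments. Hist2h2bb ranged from 10.2 to 35.7 FPKM (median 16.9), 8.06 to 22.7 (median 14.7) and 6.46 to 21.8 (median 11.3), with the highest value in naive 3. Hist2h2be ranged from 2.65 to 9.77, 2.63 to 9.36 and 3.37 to 5.69 FPKM. It was above 0 in all 18 libraries, with 303 fragments in all. Of the 17 H2B genes, 6 passed the filter.

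H3 genes were the lowest type. The 3 highest were Hist2h3b with a mean of 2.10 FPKM, Hist1h3a with 1.74 and Hist1h3g with 1.60. All lay under the mean of silent genes (3.16 FPKM), and Hist2h3b lay above their median gene mean (1.81 FPKM). Hist2h3b was above 0 in 2 naive, 3 novice and 6 expert libraries. Hist1h3a was above 0 in 2 naive, 3 novice and 0 expert libraries, and Hist1h3g in 4, 1 and 2. These values stand for 1 to a few fragments, and only Hist2h3b and Hist1h3g of 12 passed the filter. The replication-independent H3f3a, which codes for the variant H3.3, was much higher, at 37.5 to 73.9 FPKM in naive libraries, 40.2 to 68.7 FPKM in novice libraries and 52.1 to 90.6 FPKM in expert libraries.

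All H4 genes code for the same protein, and 10 of the 11 passed the filter. Hist1h4d had a median of 14.0 FPKM in naive libraries (0 to 57.9), 6.97 FPKM in novice libraries (0 to 29.6) and 30.8 FPKM in expert libraries (4.43 to 32.6). It was listed at 0 in naive 6 and in novice 3, 4 and 5. Hist1h4h was at 8.92 to 25.7 FPKM (median 20.5), 4.72 to 21.8 (median 14.9) and 0 to 25.0 (median 13.6). Hist1h4c was at 8.60 to 18.5 FPKM (median 10.4), 0 to 22.8 (median 9.52) and 8.52 to 23.5 (median 13.9), and was listed at 0 in 2 novice libraries. The groups overlapped for all of these.

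**Figure D2:**
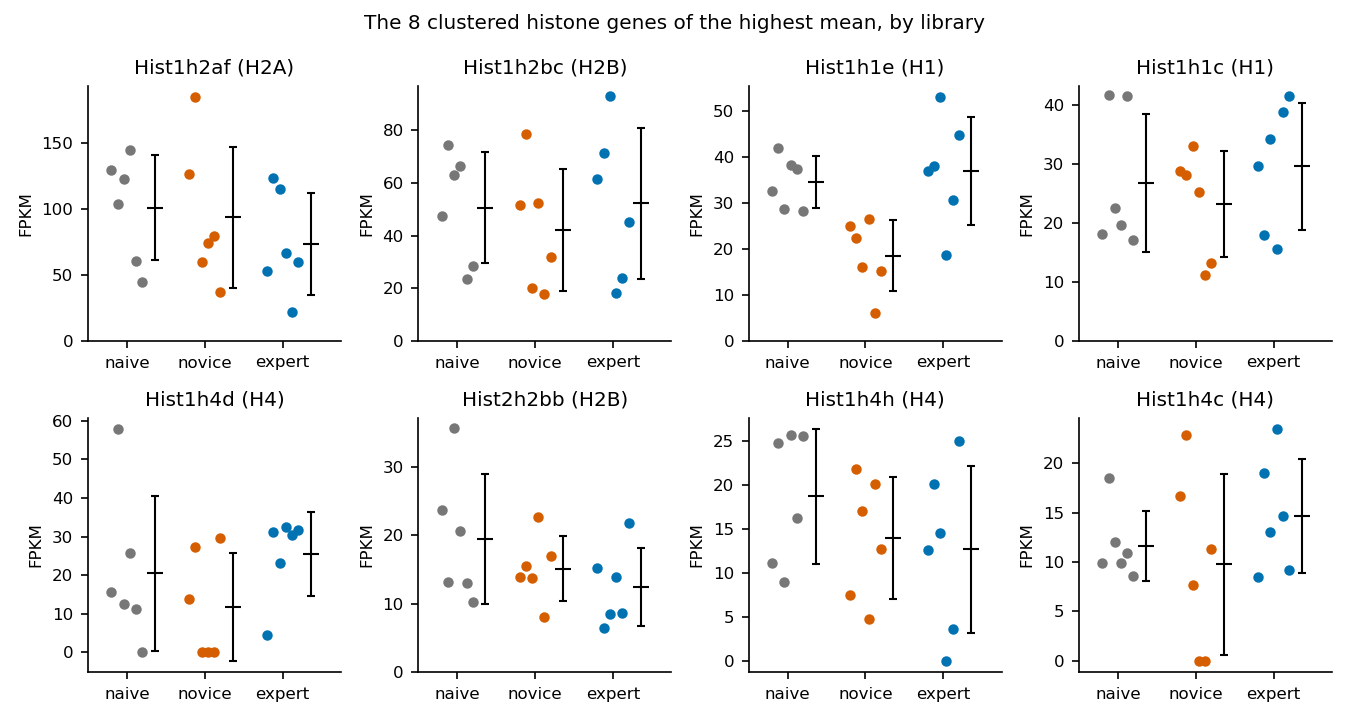
FPKM of the 8 members with the highest mean in each of the 6 naive, 6 novice and 6 expert libraries (points), with the group mean and SD beside them. Hist1h1e is the panel where novice points, at 6.06 to 26.5 FPKM, all lie below the naive points, at 28.2 to 42.0 FPKM.

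Summed by type, H2A was highest at 111 FPKM over all libraries, followed by H2B at 84.8, H4 at 69.1, H1 at 69.0 and H3 at 9.29 FPKM. H1 summed to 73.5 ± 21.1 FPKM in naive libraries, 53.9 ± 14.7 FPKM in novice libraries and 79.6 ± 22.2 FPKM in expert libraries (SD, n = 6 each). H4 summed to 82.5 ± 23.9, 49.3 ± 23.1 and 75.4 ± 15.2 FPKM. For both types the novice mean was the lowest and the groups overlapped. H2A summed to 125 ± 41.1, 114 ± 48.3 and 94.7 ± 42.5 FPKM, H2B to 87.8 ± 24.9, 77.0 ± 21.6 and 89.6 ± 26.7 FPKM and H3 to 9.48 ± 6.20, 8.98 ± 6.11 and 9.43 ± 7.91 FPKM, differences smaller than the spread within a group. All 63 members together summed to 378 ± 70.2, 303 ± 76.2 and 349 ± 72.5 FPKM. The mean of silent genes was 3.12 ± 1.997, 3.90 ± 1.42 and 2.47 ± 1.79 FPKM in the same groups, and its part in these sums was not tested.

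**Figure D3:**
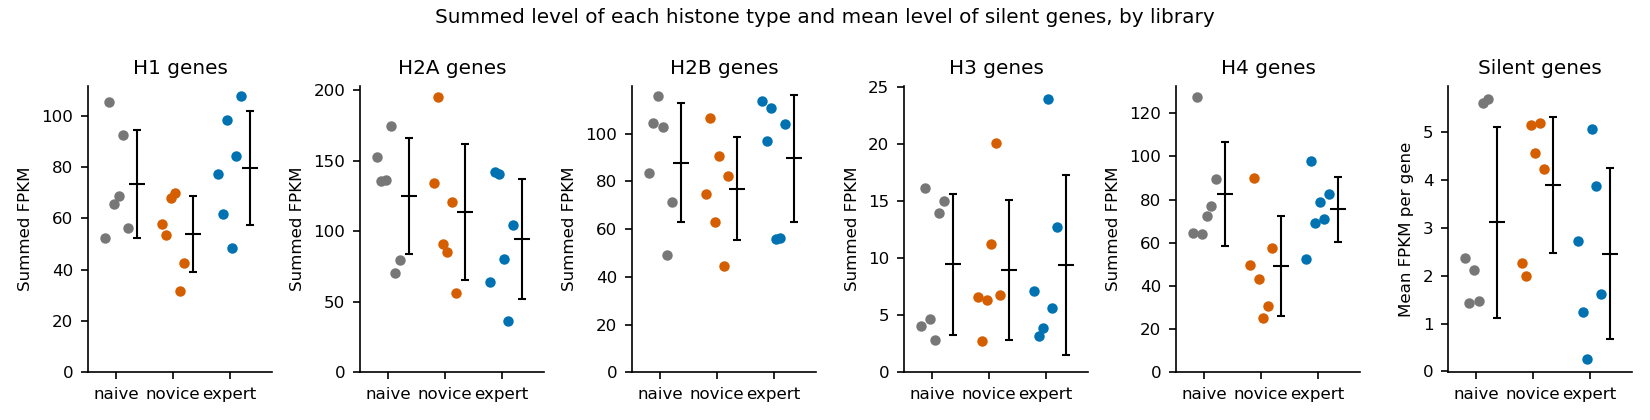
Summed FPKM of the H1, H2A, H2B, H3 and H4 genes and mean FPKM of 1544 silent genes in each of the 6 naive, 6 novice and 6 expert libraries (points), with group mean and SD. The summed H4 level has its lowest mean in novice libraries, 49.3 FPKM, and the groups overlap in every panel.

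The levels of several members differed between libraries of high and low silent level, in either direction. Hist1h2bc had a median of 23.7 FPKM (17.8 to 52.2) in the 8 libraries of high silent level and 64.9 (45.2 to 93.1) in the 10 of low level. For Hist1h2af the medians were 60.2 and 123 FPKM and for Hist1h1e 22.6 and 37.4 FPKM. Hist2h2be went the other way, at 6.44 and 3.91 FPKM. Summed by type, the medians in the 8 and the 10 libraries were 80.0 and 138 FPKM for H2A and 59.6 and 104 for H2B. For H1 they were 62.0 and 67.2, for H4 64.4 and 70.7, and for H3 12.6 and 4.40 FPKM. The sum of the 10 astrocyte markers was lower in the 8 libraries, at 1276 to 1960 FPKM, than in the 10, at 2753 to 6445 FPKM. The mean log2(FPKM + 1) of 30 genes of S phase and mitosis went the other way, higher in the 8 at 2.64 to 2.97 than in the 10 at 1.60 to 2.41. Of the 8 libraries of high level 2 were naive, 4 novice and 2 expert, so the group comparisons below are also given within each set.

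**Figure D4:**
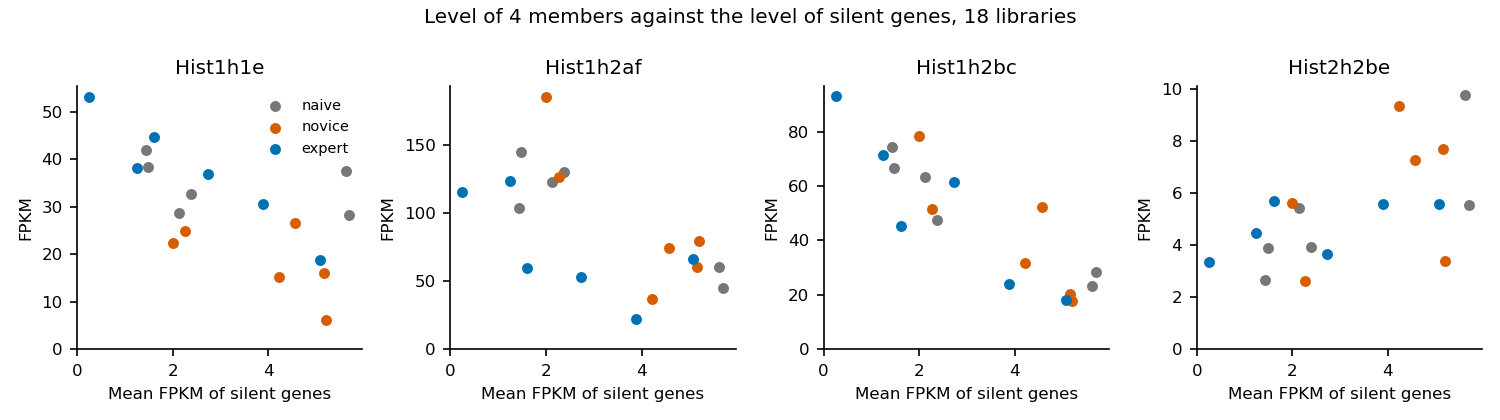
FPKM of Hist1h1e, Hist1h2af, Hist1h2bc and Hist2h2be in 18 libraries (points, coloured by group) against the mean FPKM of 1544 silent genes in the same library. Hist1h2bc lies at 45.2 FPKM or more in the 10 libraries on the left of each panel, and Hist2h2be has its higher values on the right.

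Novice astrocytes were compared with naive ones to ask what the first days of training change. The linker histone gene Hist1h1e had the smallest p-value among the members. It averaged 18.5 ± 7.65 FPKM in novice and 34.6 ± 5.60 FPKM in naive libraries (SD, n = 6 each), a log2 difference of -0.98 (SE 0.30). Its unadjusted p was 0.00412 and its adjusted p 0.890 in limma, so it did not pass the test. Its novice and naive values did not overlap in this direction, which 14 of 21745 genes (0.0644%) showed. The difference was -0.55 (SE 0.23) within the 10 libraries of low silent level and -1.14 (SE 0.47) within the other 8, and -0.85 (SE 0.25) with the silent level as a covariate. Without novice 1 it was -1.08 and without novice 3 it was -0.96, the libraries at odds with their labelled sex. Leaving out each single library in turn gave -1.10 to -0.71. The lowest value, in novice 5, stood for 3 fragments. Astrocyte markers were lower in novice libraries as well, by a median of -0.59 with 10 of 10 lower and none past the adjusted threshold, and their part in the Hist1h1e difference was not tested.

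Further members rested on few fragments. The H4 gene Hist1h4f had 1 fragment in 1 novice library and 9 fragments in 4 naive libraries. That is a ratio of 0.112 per unit of depth, with an exact 95% interval of 0.00255 to 0.806 for counting error only. The log2 difference of Hist1h4f was -2.13 (SE 0.82). Hist1h2ac, an H2A gene, had 1 fragment in novice and 8 in naive libraries, a ratio of 0.126 (0.00283 to 0.937) and a log2 difference of -1.61 (SE 0.62). Hist1h2aa, the testis H2A gene, had 8 fragments in 5 novice libraries and 1 fragment in 1 naive library, a ratio of 8.04 (1.08 to 357) and a log2 difference of 1.77 (SE 0.62). All 3 had an adjusted p of 0.890 in limma. In novice 5 Hist1h2aa was at 18.8 FPKM, the highest of its values. Its median was 4.17 FPKM in the 8 libraries of high silent level and 0 in the 10 of low level. Its mean of 2.42 FPKM over all libraries lay below that of silent genes. The part of the silent level in the Hist1h2aa difference was not tested.

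Over the 32 members tested, none was called at an adjusted p under 0.05 in either direction, as was true of all 21745 genes (0% in each direction). At an unadjusted p under 0.05 limma gave 2 members higher and 4 lower in novice libraries, against 2.72% of all genes higher and 1.88% lower. The median log2 difference of the 32 was -0.39, beside 0.07 over all genes. Of the 32, 8 were higher and 24 lower, beside 12384 higher and 9361 lower of the 21745 genes. By type the medians were -0.99 for H4 (9 of 10 lower), -0.43 for H2A, -0.40 for the pair of H3 genes, -0.35 for H1 and -0.19 for H2B. With labelled sex and age as covariates H1 turned to 0.07 and H3 to 0.04, and within the libraries of high silent level H2A turned to 0.27. The sex covariate kept the labels of novice 1 and novice 3, which their sex-chromosome transcripts went against. Within the sets of low and high silent level the median of the 32 was -0.27 and -0.32, and that of H4 was -0.27 and -0.72. Without the filter the median of the 54 members above 0 was -0.15.

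Expert astrocytes were compared with naive ones to ask what had changed once the task was learned. Hist1h1e averaged 37.0 ± 11.8 FPKM in expert and 34.6 ± 5.60 FPKM in naive libraries, a log2 difference of 0.04 (SE 0.30), smaller than its error. The members with the smallest p-values were the H2B gene Hist1h2bb and the H3 gene Hist2h3b. Hist1h2bb was at 1.63 to 10.2 FPKM in expert libraries, with none at 0, and at 0 to 6.68 FPKM in naive libraries, with 4 at 0. That gave a log2 difference of 1.63 (SE 0.68) from 16 and 5 fragments, a ratio per unit of depth of 1.93 (0.675 to 6.73). Hist2h3b was at 1.57 to 5.63 FPKM in expert and 0 to 3.15 FPKM in naive libraries, a log2 difference of 1.29 (SE 0.56) from 9 and 2 fragments, a ratio of 2.71 (0.562 to 25.8). Both intervals hold 1. The groups overlapped in each gene, and both genes had an adjusted p of 0.9996 in limma. Depth relative to expert 2 averaged 0.917 ± 0.614 in expert and 0.553 ± 0.147 in naive libraries. Endothelial markers were higher in expert libraries by a median of 0.64 (8 of 8), those of pericytes and smooth muscle by 0.47 (6 of 6), of oligodendrocyte precursors by 0.43 (6 of 6) and of astrocytes by 0.19 (10 of 10), none past the adjusted threshold. The part of depth and of these markers in the differences was not tested.

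Hist2h2bb averaged 12.5 ± 5.70 FPKM in expert libraries, against 19.4 ± 9.47 FPKM in naive libraries, with a log2 difference of -0.59 (SE 0.32) with an unadjusted p of 0.0798 in limma. Hist1h4h differed by -1.02 (SE 0.61), and its difference was 0.13 (SE 0.40) within the 10 libraries of low silent level and -3.31 (SE 0.77) within the other 8. The last value rested on 0 fragments in expert 4 and 1 in expert 5, against 4 in naive 5 and 4 in naive 6. None of the 32 members and none of all genes was called (0% in each direction). At an unadjusted p under 0.05 limma gave 2 members higher and 0 lower, against 1.43% of all genes higher and 1.43% lower. Of the 32, 15 were higher and 17 lower, beside 9547 higher and 12198 lower of the 21745 genes. The median of the 32 was -0.05, equal to the -0.05 of all genes. It turned to 0.05 with TMM (trimmed mean of M values) factors and to 0.04 with no filter on low values or with one of 5 FPKM. Within the sets of low and high silent level it was 0.11 and -0.20.

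Expert astrocytes were also compared with novice ones, a comparison that shares its novice libraries with the first and its expert libraries with the second. Hist1h1e averaged 37.0 ± 11.8 FPKM in expert and 18.5 ± 7.65 FPKM in novice libraries. The log2 difference was 1.02 (SE 0.30), with an unadjusted p of 0.00298 and an adjusted p of 0.449 in limma. Values overlapped through expert 4 at 18.7 FPKM. The difference was 0.83 (SE 0.23) and 0.71 (SE 0.47) within the libraries of low and high silent level, and 0.90 without expert 3, the deepest library. Astrocyte markers were higher in expert libraries by a median of 0.76, with 10 of 10 higher and none past the adjusted threshold, and endothelial markers by 0.63, with 8 of 8 higher. Oligodendrocyte precursor markers were higher by 0.56, with 6 of 6 higher. Their part in the Hist1h1e difference was not tested.

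Hist1h4f, with 9 fragments in 5 expert libraries and 1 in 1 novice library, had a ratio of 5.40 (0.748 to 237) and a log2 difference of 2.17 (SE 0.82). Hist1h2aa, with 1 fragment in 1 expert library and 8 in 5 novice libraries, had a ratio of 0.0750 (0.00169 to 0.559) and a log2 difference of -1.91 (SE 0.62). Its level differed with the silent level, as given above. Hist2h2ac had 24 fragments in 6 expert libraries and 5 in 3 novice libraries, and differed by 1.73 (SE 0.68). It differed by 0.85 (SE 0.56) and 1.78 (SE 0.78) within the libraries of low and high silent level. All 3 had an adjusted p of 0.449 in limma. None of the 32 members was called, again as for all genes (0% in each direction). At an unadjusted p under 0.05 limma gave 4 members higher and 1 lower, against 4.88% of all genes higher and 5.97% lower.

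The median of the 32 was 0.32, beside -0.14 over all genes, and was 0.18 without expert 4. Of the 32, 20 were higher and 12 lower, beside 8790 higher and 12955 lower of the 21745 genes. H4 had a median of 0.90 with 7 of 10 higher, H3 of 0.60, H1 of 0.30, H2A of 0.15 and H2B of -0.08. Within the libraries of low and high silent level the H4 median fell to 0.17 and 0.21. H2A turned to -0.36 within the libraries of high silent level, to -0.06 without expert 6 and to -0.0044 without novice 4. H2B had either sign over the alternatives, with 0.05 with TMM factors and 0.07 with quantile normalization. These 2 scalings moved the median of all genes to -0.02 and 0.04 and that of the 32 members to 0.44 and 0.38. This was not the same in all libraries, since within the 8 of high silent level, with 2 expert and 4 novice libraries, the median of the 32 was -0.16, while it was 0.48 within the 10 of low level. A moderated F test of any difference among the 3 groups called none of the 32 members (0% of all genes), and 5 members had an unadjusted p under 0.05 in it, against 5.53% of all genes.

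**Figure D5:**
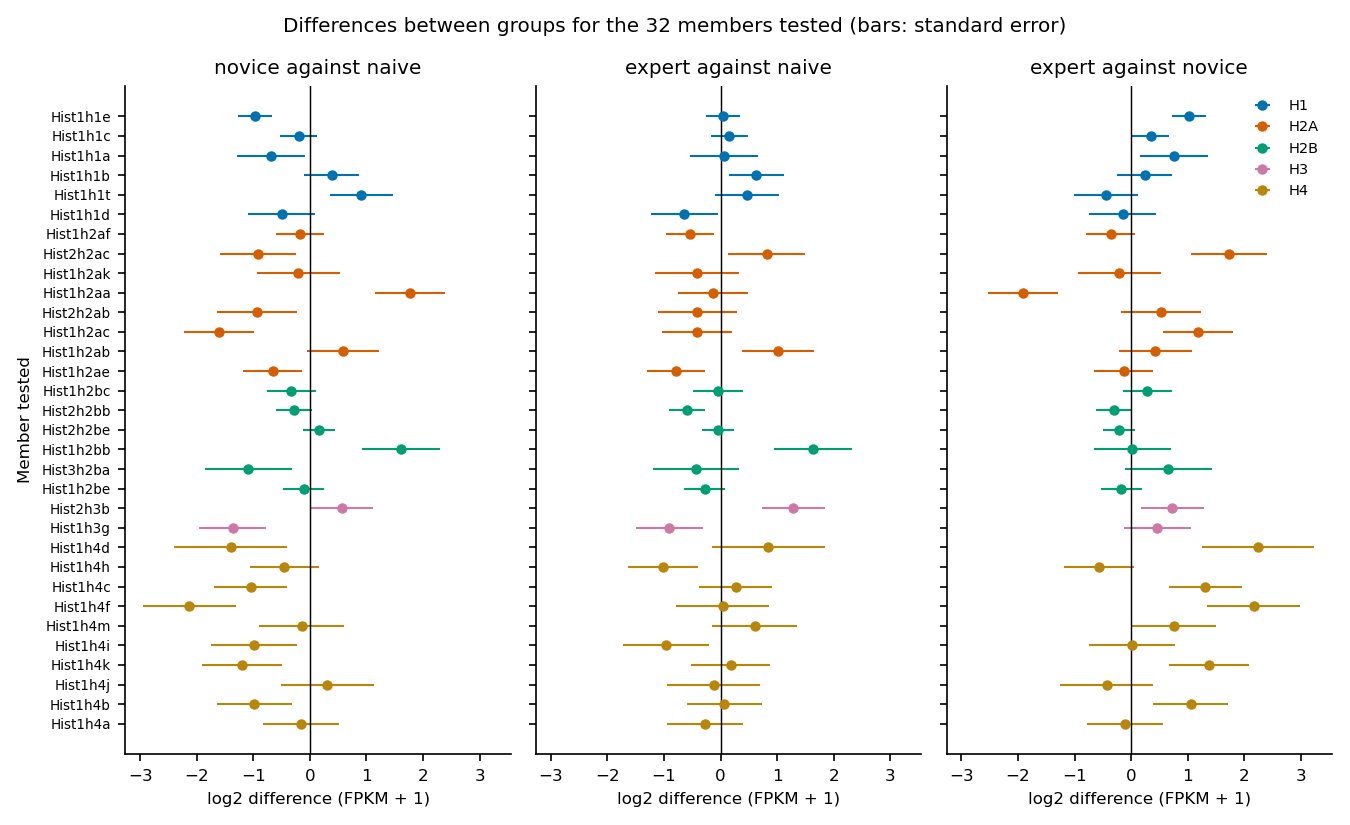
Log2 difference on the FPKM + 1 scale with its standard error (bars) for the 32 members tested, by histone type and, within a type, from the highest to the lowest mean. In novice against naive 24 of 32 points lie left of 0, and in expert against novice 20 lie right of it. Of all 21745 genes tested, 9361 and 8790 did so. None passed the adjusted threshold.

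Other genes that make, load or replace histones gave no call either. Of 18 genes tested in the list of variant histones, which also holds Hist3h2a and Hist4h4, 5 were higher and 13 lower in novice against naive libraries (median -0.19). The linker variant H1fx differed by -1.13 (SE 0.46, unadjusted p 0.0252 in limma), and the centromeric H3 variant Cenpa by 0.76 (SE 0.39). The median of H1fx was 7.60 FPKM in libraries of low silent level and 2.08 FPKM in those of high level. For Cenpa these medians were 1.06 and 2.76 FPKM. The part of that level in the differences of both genes was not tested. In expert against novice libraries Cenpa differed by -0.99 (SE 0.39, unadjusted p 0.0183 in limma), with 0.924 ± 0.230 FPKM in expert and 3.24 ± 2.50 FPKM in novice libraries. H3f3b differed by 0.42 (SE 0.23). The table has 4 entries with a Hist name that the rule leaves out for want of a member letter or for a pseudogene ending. Of these Hist2h4 averaged 13.8 FPKM, Hist3h2a 12.6 FPKM, Hist4h4 6.80 FPKM and Hist3h2bb-ps 1.23 FPKM.

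For histone mRNA processing and transcription, Slbp averaged 8.35 ± 2.41 FPKM in novice and 5.23 ± 1.07 FPKM in naive libraries, a log2 difference of 0.55 (SE 0.23, unadjusted p 0.0241 in limma). The median of the 23 genes of that list was -0.02, and 0.02 and 0.09 in the other comparisons. Pou2f1, which codes for the octamer-binding factor Oct-1, differed by 0.42 (SE 0.18) in expert against novice libraries, while Srrt and Cstf2, RNA processing factors, differed by 0.37 (SE 0.23) and 0.22 (SE 0.17). Among 21 histone chaperones the FACT subunit Ssrp1 was at 10.05 ± 4.14 FPKM in novice and 16.2 ± 4.45 FPKM in naive libraries, a log2 difference of -0.68 (SE 0.26). It was at 18.6 ± 5.16 FPKM in expert libraries, a difference of 0.88 (SE 0.26, unadjusted p 0.00348 and adjusted p 0.449 in limma) from novice ones. Nap1l4 differed by -0.63 (SE 0.26) and 0.65 (SE 0.26) in the same comparisons, and the more abundant Nap1l1 and Npm1 by 0.26 (SE 0.31) and -0.15 (SE 0.19) in novice against naive libraries. Ssrp1 was at 14.7 to 27.3 FPKM in libraries of low silent level and at 5.25 to 13.4 FPKM in those of high level. The medians in the low and high sets were 26.7 and 14.0 FPKM for Nap1l4 and 5.58 and 9.12 FPKM for Slbp. The part of the silent level in these differences was not tested.

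Clustered histone genes are mostly read in S phase, and the list used here joins genes of that phase with those of mitosis. These 30 genes of S phase and mitosis had a median of 0.10 in novice against naive libraries. In expert libraries it was -0.15 against naive and -0.27 against novice ones. The mitotic cyclin Ccnb2 differed by -1.09 (SE 0.42, unadjusted p 0.0170 in limma) in expert against novice libraries, at 1.02 ± 0.461 and 3.75 ± 2.65 FPKM. The S-phase regulator E2f1 differed by 0.63 (SE 0.28) in novice against naive libraries. Tyms and Ube2c, the highest of this list, were at 72.3 ± 22.4 and 31.4 ± 13.7 FPKM in novice and at 56.2 ± 36.5 and 21.4 ± 14.4 FPKM in naive libraries. This list was higher in the 8 libraries of high silent level, as given above, and that level's part in its differences was not tested.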

How the data were processed

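Per the submitters' processing notes, reads were handled with TopHat and Cufflinks on mouse build mm9; no source used here gives versions, annotation or options. The authors' deposited table is titled normalized counts, and its values were read as FPKM. They were whole multiples of a 1-fragment step that differed between genes and libraries. This shows scaled counts and does not by itself fix the unit. Of 23951 entries, 27 with date-like names were left out. The members, gene lists and rules for naming genes were chosen with earlier results of these data known. Per type the 3 members of highest mean were named, per comparison the 4 of smallest p, and per other list up to 2 of each kind. The 21745 genes that reached 1 FPKM in 6 or more of the 18 libraries were tested with limma 3.58.1 in R 4.3.3 on log2(FPKM + 1), in 1 fit with a trend, two-sided, adjusted by Benjamini and Hochberg at 0.05. This scale understates changes of low genes. Fragment ratios have exact binomial intervals. Scripts were tested on simulated data. Alternatives were other pseudocounts, filters, scalings and covariates, a replicate block, single libraries left out, and sets of libraries by silent level. Sequences came from GENCODE M21 and RefSeq, both GRCm38, so no coordinates on mm9 are given.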

Additional observations from a re-analysis of the deposited data

Results flagged for a closer look

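Groups of 6 libraries were taken over the named members, the sums by type, the silent level and the depth. In 9 of 80 groups 1 library lay apart from the other 5 by over 0.625 of the range (Dixon's criterion). Chance meets it in about 1 of 20 groups of normally distributed values, a rate that need not hold for counts near 0. In 5 of the 9 groups every other library was listed at 0, where any value above 0 meets the criterion. These were Hist1h2aa in naive 6 at 5.96 FPKM and in expert 1 at 2.95 FPKM, Hist1h2ac in novice 2 at 1.98 FPKM, Hist1h3g in novice 2 at 1.95 FPKM and Hist1h4f in novice 1 at 3.70 FPKM. Hist1h2aa was at 18.8 FPKM in novice 5, with 0 to 5.31 FPKM in the other novice libraries. Hist1h3a was at 9.93 FPKM in naive 6, with 0 to 2.87 FPKM in the others. Hist1h4c was at 18.5 FPKM in naive 2, with 8.60 to 12.0 FPKM in the others. Hist1h4d was at 4.43 FPKM in expert 1, below the 23.2 to 32.6 FPKM of the other expert libraries.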

How the results depend on the processing

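No histone member was called under any alternative run, and leaving out single libraries kept the count of all genes called at 0 in every comparison. The split by silent level at the widest gap on the log2 scale left expert 3 alone and could not be fitted, so the split used here, at the widest gap among the other 17 libraries, was chosen after seeing the data. Within the 8 libraries of high level 3 genes were called between novice and naive, 4 between expert and naive and 5 between expert and novice libraries, and the members' median in the last comparison was -0.16. Within the 10 of low level Hist1h4h turned to 0.13 in expert against naive. Without expert 3 there, it was 0.21, 1 gene was called and the members' median was 0.19. Without a filter on low values the median in novice against naive was -0.15, over 54 members. The cause of the other shifts was not tested. Replicate numbers did not pair the libraries: 10 of 18 same-number pairs correlated over 0.1 and 1 library correlated best with its own number. With a replicate block 0 members and 0 genes were called, and the medians stayed at -0.39, -0.05 and 0.32. Leaving out single libraries gave medians of -0.51 to -0.32, -0.22 to 0.01 and 0.18 (without expert 4) to 0.40. Low depth limits most members, with 37 of the 51 that have whole fragments never over 5 fragments in a library.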
